A study of Homo sapiens with 8 samples.

Results

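The genes described here are 10 genes of leukocyte adhesion and the cortical actin layer, out of 20136 protein coding genes of the annotation. They are the integrin chains ITGA4, ITGB1, ITGB7, ITGAL and ITGB2, the adhesion kinases PTK2B and PTK2, the membrane linkers EZR and MSN, and the actin binding protein CORO1A. They were listed by name as a functional group, with earlier results of these data known. For each gene and library, the peak with the highest -log10 q centred within 3 kb of any annotated transcription start site (TSS) of the gene was taken, together with every peak inside the gene whose -log10 q was at least 3. A peak with a -log10 q of at least 3, which is a false discovery rate (FDR) of 0.001, is called a passing peak.

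Integrins are heterodimers of an alpha and a beta chain that bind adhesion molecules on other cells and in the matrix. ITGA4 pairs with ITGB1 or ITGB7, and ITGAL pairs with ITGB2, and lymphocytes use these receptors to arrest on vessel walls, enter lymphoid tissue and hold on to antigen presenting cells. A bound integrin signals through the kinases PTK2 (FAK) and PTK2B (PYK2), while ezrin and moesin tie membrane proteins to the actin cortex and coronin 1A acts on the actin network beneath it. FLI1 is a transcription factor of the ETS family, whose members bind DNA with GGAA at the core of the site.

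The libraries came from OCI-Ly1 and VAL, established lymphoma cell lines of the germinal centre B cell type, which were labelled with no treatment, agent or time. Chromatin was precipitated with a rabbit polyclonal FLI1 antibody in 2 replicates per line, and 4 input DNA samples that accompany the 4 FLI1 libraries were not analysed here. Replicate 1 of OCI-Ly1 could not be placed at promoters, since its list consists of 37 intervals and 33 of them exceed 1 Mb, so replicate 2 alone represents this line, is called OCI-Ly1 in what follows, and has no replicate error. The VAL replicates are called VAL-R1 and VAL-R2, and their lists differ in size, with 973 and 6474 passing peaks beside 5354 in OCI-Ly1. The samples have no condition to compare, and what follows gives levels per library with no test. The labels do not say whether the replicates are separate cultures, and peak lists hold no marker expression by which the identity of the lines could be checked.

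The number of reads at each summit was inferred from the fold enrichment and the p-value of the peak, as described with the processing, and is given with an exact Poisson 95% interval, which covers counting error only. The weakest passing peaks rested on 6 reads in OCI-Ly1, 8 in VAL-R1 and 6 in VAL-R2, and the medians were 8, 17 and 8 reads. The lists are much longer than the passing sets, with 1107379, 237178 and 986629 listed peaks in OCI-Ly1, VAL-R1 and VAL-R2, of which under 1% passed, so a listed peak is common and a pass is not. No gene expression values were analysed here.

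A passing promoter peak was present at 5 of the 10 genes in OCI-Ly1, namely ITGA4, ITGB1, PTK2B, EZR and CORO1A, where 19.0% of all protein coding genes had such a peak. In VAL-R2 the same 5 genes passed together with PTK2 and MSN, which makes 7 of 10 beside a background of 20.9%. VAL-R1 had a passing peak at PTK2B only, beside a background of 3.14%. Thus 5 of 10 genes passed in both cell lines (background 12.6%), 7 of 10 in at least 1 library (background 27.4%) and 1 of 10 in all 3 libraries (background 2.74%). The integrin chains ITGB7, ITGAL and ITGB2 passed in none of the 3 libraries.

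The 10 genes have many annotated starts, and a gene with more starts has more chances to hold a peak within 3 kb. Their median number of TSS was 16.5, from 3 at EZR to 55 at PTK2, while the median protein coding gene had 5. Among the 2102 coding genes with at least 16 TSS, 32.4% passed in OCI-Ly1, 4.76% in VAL-R1, 35.0% in VAL-R2 and 22.0% in both lines. Of the 10 genes, 6 have at least 16 TSS, and 3 of these 6 (ITGB1, PTK2B and CORO1A) passed in both lines. The part of the TSS number in the count of the 10 genes was not tested beyond this comparison. The median of the best -log10 q over the 10 genes was 3.44 in OCI-Ly1, 0.4 in VAL-R1 and 3.38 in VAL-R2, beside 1.22, 0.183 and 1.64 over all coding genes.

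**Figure D1:**
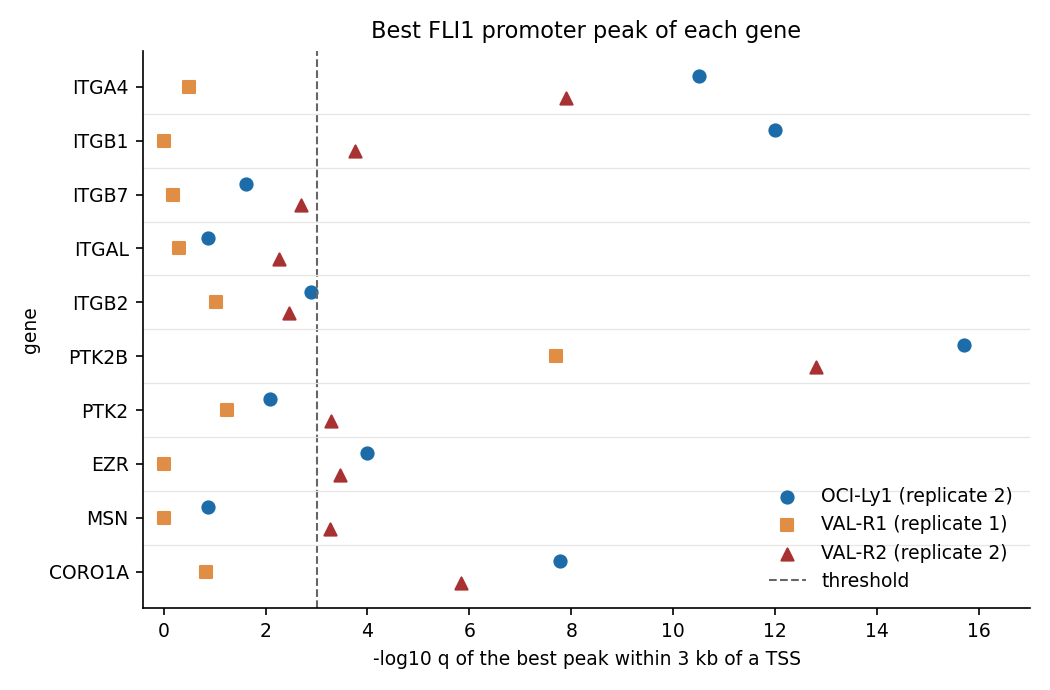
The -log10 q (x axis, no unit) of the best FLI1 peak within 3 kb of a TSS is plotted for each of the 10 genes (y axis), with a circle for OCI-Ly1, a square for VAL-R1, a triangle for VAL-R2 and a dashed line at the threshold of 3. PTK2B is the only gene with all 3 symbols to the right of the line, with values of 15.7, 7.71 and 12.8, while the 3 symbols of ITGB7, ITGAL and ITGB2 are all to the left of it.

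ITGA4 (ENSG00000115232, chr2:182321929-182403667, plus strand, GRCh37) encodes the alpha chain that binds VCAM1, and it had the second strongest promoter peaks of the integrin chains in OCI-Ly1 and the strongest in VAL-R2. Its best peak reached a -log10 q of 10.5 in OCI-Ly1, 0.495 in VAL-R1 and 7.9 in VAL-R2. The library VAL-R1 lies apart below the threshold, and the other 2 libraries pass. The summits lay at the same place in all 3 libraries, 393, 400 and 404 bp upstream of the nearest ITGA4 start, so the largest distance between any 2 of them was 11 bp. The summits held 11 reads (interval 5.49 to 19.7) over a local background of 0.311 in OCI-Ly1, 9 reads (4.12 to 17.1) over 2.51 in VAL-R1 and 11 reads over 0.538 in VAL-R2. Thus the read numbers at ITGA4, which were not scaled for library depth, overlapped within counting error. The local background of VAL-R1 was higher, and the fold was 2.85 there against 9.15 and 7.8. This higher background was not particular to ITGA4. At the best peaks of all 10 genes it was 1.17 to 2.93 in VAL-R1 and 0.283 to 0.593 in the other 2 libraries. The part of the background in the missing pass was not tested.

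ITGB1 (ENSG00000150093, chr10:33176201-33294720, minus strand), the beta chain shared by ITGA4 and several other alpha chains, passed in both cell lines. Its -log10 q was 12.0 in OCI-Ly1, 0.0 in VAL-R1 and 3.76 in VAL-R2. The passing summits were 28 bp apart and stood 207 and 179 bp upstream of the canonical ITGB1 start, in an intron of longer ITGB1 transcripts. The nearest start of any gene belongs to ITGB1-DT, a divergent long non-coding RNA, at 0 and 28 bp, so the peak cannot be assigned to ITGB1 rather than to ITGB1-DT by position. The 2 passing peaks held 13 reads (6.92 to 22.2) and 6 reads (2.2 to 13.1), and these intervals overlap. In VAL-R1 no listed peak covered the site, and the best promoter peak of ITGB1 there had 4 reads and lay 45930 bp away from the OCI-Ly1 summit.

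The sequences around the summits of ITGA4 and ITGB1 are shown because they differ in the longer ETS motif, which was searched as CCGGAAA or CCGGAAG on both strands and contains the GGAA core. Each run is the reference sequence of GRCh37 over 101 bases centred on the OCI-Ly1 summit, read 5′ to 3′ on the strand of the gene. The ITGA4 run is chr2:182321486-182321586 on the plus strand, and its capitals mark GGAA, since the longer motif is not in this window. The ITGB1 run is chr10:33247315-33247415 on the minus strand, and its capitals mark TTTCCGG, which is CCGGAAA read on the other strand.
ITGA4: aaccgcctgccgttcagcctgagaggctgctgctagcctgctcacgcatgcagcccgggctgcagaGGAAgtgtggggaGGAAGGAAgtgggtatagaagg
ITGB1: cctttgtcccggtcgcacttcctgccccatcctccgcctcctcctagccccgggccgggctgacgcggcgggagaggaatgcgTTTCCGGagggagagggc
ITGA4 thus holds GGAA 3 times within 50 bp of the summit, all on the strand of the gene and on the downstream side. The ITGB1 motif lies 36 bp from the summit of OCI-Ly1 and 8 bp from that of VAL-R2.

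The other 3 integrin chains had no passing promoter peak, although their best values in VAL-R2 were all above 2. ITGB2 (ENSG00000160255, chr21:46305868-46351904, minus strand), the common beta chain of the leukocyte integrins, came closest, with a -log10 q of 2.89 in OCI-Ly1, 1.02 in VAL-R1 and 2.46 in VAL-R2. Its best peaks held 6, 11 and 5 reads, and only those of OCI-Ly1 and VAL-R2 overlapped, with summits 638 bp apart. ITGB7 (ENSG00000139626, chr12:53585107-53601066, minus strand), the partner of ITGA4 in gut homing, had 1.61, 0.183 and 2.7 in the same order of libraries. These peaks had 4, 7 and 6 reads, and their summits were between 3164 and 15545 bp apart, so the best peaks of ITGB7 did not share a site. The other listed peaks of ITGB7 were not compared between libraries. ITGAL (ENSG00000005844, chr16:30483979-30534888, plus strand), the alpha chain that binds ICAM1, had 0.875, 0.304 and 2.27, with 4, 6 and 5 reads at summits between 10624 and 31199 bp apart. The peak of ITGB7 in VAL-R2 lay in a coding exon and that of ITGAL in the same library in an intron, 983 bp downstream of the canonical start.

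The passing peak nearest to the canonical ITGB2 start was the same site in all 3 libraries, about 19 kb upstream and outside the gene. It was at the start of SLX9, a gene named here after its values were seen. The -log10 q of that site was 20.7 in OCI-Ly1, 10.9 in VAL-R1 and 27.0 in VAL-R2, with 18, 27 and 24 reads and summits 19051, 19096 and 19086 bp from the ITGB2 start. The 3 libraries thus shared a strong site in the neighbourhood of ITGB2 that lies within 75 bp of another coding start, while none passed at ITGB2 itself. For ITGB7 the nearest passing peak was 26568 bp downstream in OCI-Ly1 and 12191 bp upstream in VAL-R2, and for ITGAL it was 42409 and 13798 bp upstream. In VAL-R1 it was 981695 bp from ITGB7 and 117420 bp from ITGAL.

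PTK2B (ENSG00000120899, chr8:27168999-27316908, plus strand), the kinase PYK2 of blood and nerve cells, had the highest -log10 q of the 10 genes in every one of the 3 libraries. It reached 15.7 in OCI-Ly1, 7.71 in VAL-R1 and 12.8 in VAL-R2, with folds of 11.7, 6.69 and 10.3. The summits held 14 reads (7.65 to 23.5), 18 reads (10.7 to 28.4) and 13 reads (6.92 to 22.2), so the intervals of the libraries overlap. Of all coding genes, 97.3%, 99.0% and 96.2% had a lower best value in these libraries, and PTK2B ranked 534, 208 and 749 from the top. The highest values of any coding gene were 175, 98.0 and 180 in the same order.

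The PTK2B summits lay 66, 52 and 43 bp upstream of the most upstream annotated start of the gene, within 23 bp of each other. The canonical PTK2B start is 14136, 14122 and 14113 bp further downstream, which places the site outside the 3 kb window of that start. With only the canonical start of each gene, an alternative chosen after seeing the data, the best PTK2B values fell below the threshold, to 0.0188 in OCI-Ly1, 0.0 in VAL-R1 and 0.735 in VAL-R2. The call at PTK2B thus belongs to its upstream start, from which coding transcripts of the annotation begin. The longer ETS motif was found at the same position in the 3 libraries, 19, 5 and 4 bp from the summits.

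PTK2 (ENSG00000169398, chr8:141667999-142012315, minus strand), the focal adhesion kinase expressed in most tissues, is the paralog of PTK2B and passed in VAL-R2 only. Its best promoter peak had a -log10 q of 2.09 in OCI-Ly1, 1.25 in VAL-R1 and 3.29 in VAL-R2. The OCI-Ly1 peak was at another place, 332268 bp downstream of the canonical start and 333062 bp from the VAL-R2 summit. The passing summit held 6 reads (2.2 to 13.1) in an exon of the untranslated region, 34 bp from the nearest PTK2 start. At the same site OCI-Ly1 had a listed peak with its summit 1 bp away, 6 reads and a -log10 q of 1.61, and VAL-R1 had a listed peak 29 bp away with 10 reads. The read intervals at this PTK2 start overlap between the libraries, while the threshold lies between their values. Listing alone says little, since OCI-Ly1, VAL-R1 and VAL-R2 had 90, 26 and 129 listed peaks inside PTK2.

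**Figure D2:**
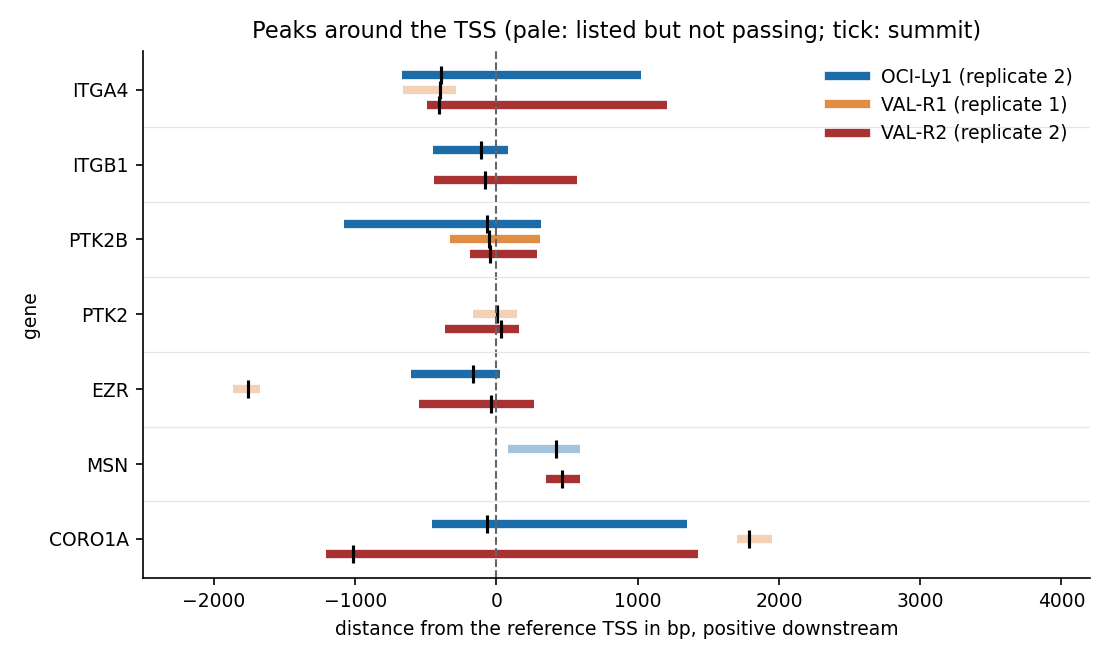
Horizontal bars give the extent of the best promoter peaks of the 7 genes with a passing peak, on an x axis of bp from a reference TSS of the gene (the start nearest to its strongest summit, positive downstream), in blue for OCI-Ly1, orange for VAL-R1 and red for VAL-R2. Black ticks mark summits, pale bars did not pass, and best peaks beyond the drawn range (PTK2 in OCI-Ly1, ITGB1 and MSN in VAL-R1) are left out. The ticks of ITGA4, ITGB1 and PTK2B are nearly stacked, whereas the passing summits of CORO1A stand 947 bp apart within broad bars.

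EZR (ENSG00000092820, chr6:159186773-159240400, minus strand) encodes ezrin and has 3 annotated starts, the fewest of the 10 genes. Its best peak had a -log10 q of 3.99 in OCI-Ly1, 0.0 in VAL-R1 and 3.47 in VAL-R2. The passing peaks overlapped, with summits 165 and 37 bp upstream of the only start near them and 128 bp apart. They held 7 reads (2.81 to 14.4) and 6 reads (2.2 to 13.1), close to the 6 reads that a passing peak needs, so EZR passed in both lines by a narrow margin.

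MSN (ENSG00000147065, chrX:64808257-64961793, plus strand), which encodes moesin, the main linker of this family in lymphocytes, passed in VAL-R2 alone. Its -log10 q was 0.873 in OCI-Ly1, 0.0 in VAL-R1 and 3.27 in VAL-R2, from 3, 3 and 6 reads. The summit in VAL-R2 was in an intron, 463 bp from the nearest MSN start and 1064 bp downstream of the canonical one. A listed peak of OCI-Ly1, among 62 listed inside MSN, covered the same site with its summit 42 bp away, and its interval of 0.619 to 8.77 reads overlaps that of 2.2 to 13.1 in VAL-R2. Whether the cell lines differ at MSN was not tested, and OCI-Ly1 has no replicate.

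CORO1A (ENSG00000102879, chr16:30194148-30200397, plus strand) encodes coronin 1A, an actin binding protein of blood cells, and passed in both lines. Its -log10 q was 7.78 in OCI-Ly1, 0.827 in VAL-R1 and 5.84 in VAL-R2, from 10 reads (4.8 to 18.4), 11 reads (5.49 to 19.7) and 8 reads (3.45 to 15.8). The 11 reads of VAL-R1 stood over a local background of 2.93 and at another place, 1854 bp from the OCI-Ly1 summit. Both passing peaks were broad, at 1807 and 2636 bp, and overlapped, but their summits were on either side of the canonical start, 548 bp downstream in OCI-Ly1 and 399 bp upstream in VAL-R2. In contrast to PTK2B, ITGA4 and ITGB1, the lines thus shared the region but not the summit at CORO1A.

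The summits of EZR and CORO1A in OCI-Ly1 are shown in the same way, since the first lacks the longer motif and the second holds it. The EZR run is chr6:159240515-159240615 on the minus strand, and its capitals mark TTCC, which is GGAA on the other strand. The CORO1A run is chr16:30195421-30195521 on the plus strand, and its capitals mark TTTCCGG, the reverse complement of CCGGAAA.
EZR: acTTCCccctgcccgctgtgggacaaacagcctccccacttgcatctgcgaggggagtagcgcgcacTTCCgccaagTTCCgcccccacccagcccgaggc
CORO1A: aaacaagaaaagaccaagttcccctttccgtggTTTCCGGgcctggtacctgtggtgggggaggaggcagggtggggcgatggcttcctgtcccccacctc
The CORO1A motif lies 14 bp from the summit of OCI-Ly1. No such motif and no GGAA was found within 50 bp of the CORO1A summit of VAL-R2, 947 bp away.

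The longer motif was within 50 bp of the summit at 3 of the 5 passing members of OCI-Ly1 (ITGB1, PTK2B and CORO1A), at the 1 passing member of VAL-R1 (PTK2B) and at 2 of the 7 of VAL-R2 (ITGB1 and PTK2B). Over all passing promoter peaks the share with the motif was 48.6%, 61.6% and 41.7%, respectively, so the members' counts lie near what all promoter peaks show. GGAA alone was present at all 5 members, at the 1 member and at 6 of 7, beside 88.6%, 92.6% and 86.3% of all passing promoter peaks. The form CCGGAA followed by GT was found at 1 member per library, PTK2B, beside 19.4%, 31.7% and 16.7% of all passing promoter peaks. In the window from 250 bases before to 50 bases after the canonical start, the longer motif was present in 18.2% of 19856 coding promoters, and of the 10 genes in that of ITGB1 only. The motifs at PTK2B and CORO1A thus lie outside the canonical promoter window, and no match says only that these letters are not in the window.

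**Figure D3:**
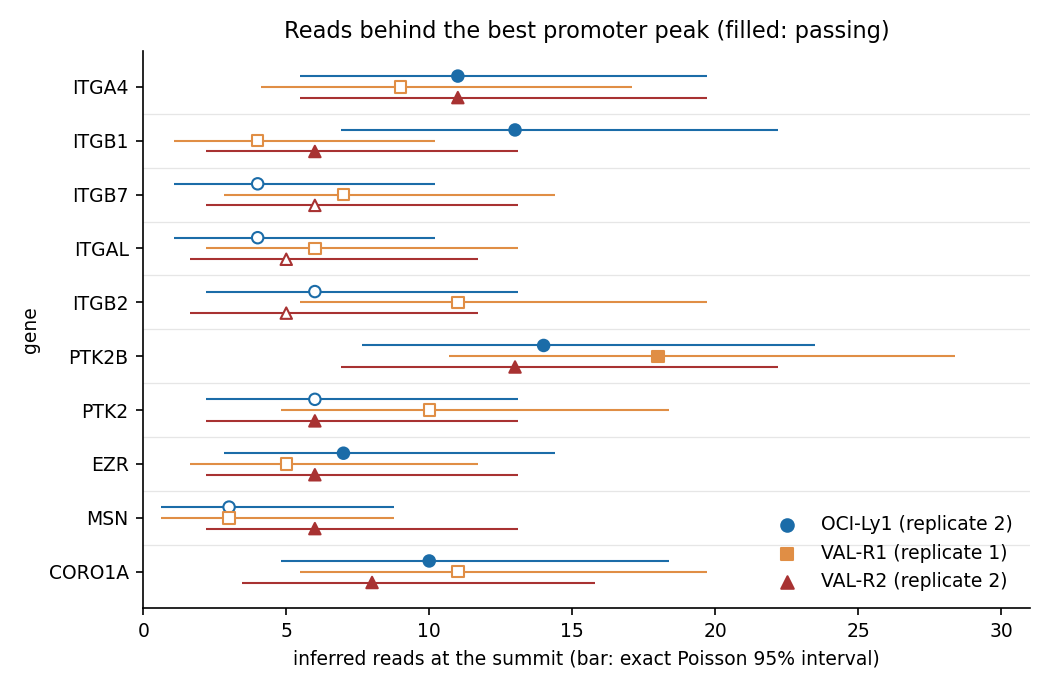
Inferred reads at the summit of the best promoter peak (x axis) are drawn for each gene with exact Poisson 95% intervals as bars, filled where the peak passed and open where it did not. The symbols and colours of the libraries are those of the plot of -log10 q, and most intervals of a gene overlap between libraries, as for PTK2B with 14, 18 and 13 reads, while the open squares of VAL-R1 reach 11 reads at ITGB2 and CORO1A without passing.

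Counted inside the genes, passing peaks were centred in 4 of the 10 genes in OCI-Ly1 (5 peaks, background 15.9% of coding genes), in none in VAL-R1 (background 2.59%) and in 6 in VAL-R2 (6 peaks, background 18.8%). All but 2 of these peaks were the promoter peaks already described. The 2 others lay in introns of PTK2, the longest of the 10 genes at 344 kb, and were seen in OCI-Ly1 only. The first (chr8:141724450-141724885) had a -log10 q of 3.4 with 7 reads and was 3479 bp from the nearest start, and the second (chr8:141849240-141849505) had 4.45 with 10 reads at 7016 bp. VAL-R2 had values of 0.435 and 0.952 at these places and VAL-R1 no listed peak, and the longer motif was at neither summit. No passing peak deep inside a gene was therefore shared by both lines in these 10 genes. The background shares of coding genes with a peak inside were not matched for gene length.

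A wider list of 114 genes in 8 groups, which holds the 10 genes, was counted in the same way. Without the 10 genes, 28 of 104 passed in OCI-Ly1 (26.9%), 6 in VAL-R1 (5.77%), 34 in VAL-R2 (32.7%) and 23 in both lines (22.1%). These shares were above those of all coding genes and below those among the 10 genes. Coding genes with at least 16 TSS had 32.4%, 4.76%, 35.0% and 22.0% in the same order. The list was not matched for the number of TSS. The median best -log10 q of the 104 genes was 1.8, 0.328 and 2.27. Among 18 integrin alpha chains only ITGA4 and ITGA7, the laminin receptor chain of muscle, passed in both lines, and ITGA7 had 8.49, 1.33 and 4.42 in the 3 libraries. Among 8 beta chains only ITGB1 did so, while ITGB4 (2.48, 0.382 and 2.7) passed in none and ITGB5 (2.0, 0.757 and 3.79) in VAL-R2 alone. The integrin chains passed at shares near those of all coding genes, with 3 of 18 alpha chains and 1 of 8 beta chains in OCI-Ly1 beside 19.0%, and 3 of 18 and 2 of 8 in VAL-R2 beside 20.9%. Of 12 ligands and homing receptors, only ICAM2, a ligand of ITGAL, passed in both lines with 3.38 and 9.66 in OCI-Ly1 and VAL-R2. That is 8.33% of this group, beside 12.6% of all coding genes.

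Of the 29 integrin activators and adhesion adaptors, 8 passed in both lines (27.6%), beside 12.6% of all coding genes. In VAL-R1 the share was 3.45%, near the 3.14% of all coding genes. The adaptor CRK had the highest values of the wider list in OCI-Ly1, with 44.8, 8.41 and 35.9 in OCI-Ly1, VAL-R1 and VAL-R2. The talins TLN1 (9.4, 0.757 and 9.74) and TLN2 (20.5, 1.02 and 10.9), which switch integrins on, and ARHGEF7 (8.93, 2.33 and 11.9), an exchange factor at adhesions, followed. Thus the talins passed in both lines while 3 of the 5 integrin chains among the 10 genes passed in none.

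Of 8 ERM proteins and partners only EZR passed in both lines (12.5%), near the 12.6% of all coding genes. RDX (radixin) had 3.06, 0.382 and 1.71. STK10, a kinase that phosphorylates ERM proteins, had 2.18, 1.34 and 3.53. Of 7 coronins, CORO1A and CORO1C passed in both lines (28.6%), and CORO1C did so in all 3 libraries with 6.47, 6.92 and 17.1. CORO1B (7.99, 0.0 and 1.51) passed in OCI-Ly1 alone, and CORO2B (2.89, 0.118 and 4.56) and CORO7 (2.24, 0.653 and 10.5) in VAL alone. The 30 cortical actin regulators had the highest share of the groups with at least 12 genes, with 13 in OCI-Ly1, 4 in VAL-R1, 16 in VAL-R2 and 12 in both lines. These are 43.3%, 13.3%, 53.3% and 40.0%, beside 19.0%, 3.14%, 20.9% and 12.6% of all coding genes. Of the smaller groups, PTK2 and PTK2B had higher shares in every library and the coronins similar ones (42.9%, 14.3% and 57.1%). The beta chains and the ERM group had lower ones. Among the cortical actin regulators, ACTB (beta actin) had 24.0, 5.09 and 58.2, ARPC2, a subunit of the actin nucleating ARP complex, 35.1, 10.7 and 13.0, and CFL1 (cofilin) 11.6, 3.0 and 13.8. RAC1 (12.0, 1.33 and 25.1), PFN1 (10.4, 2.19 and 11.8) and VASP (17.8, 0.896 and 9.87) passed in both lines.

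**Figure D4:**
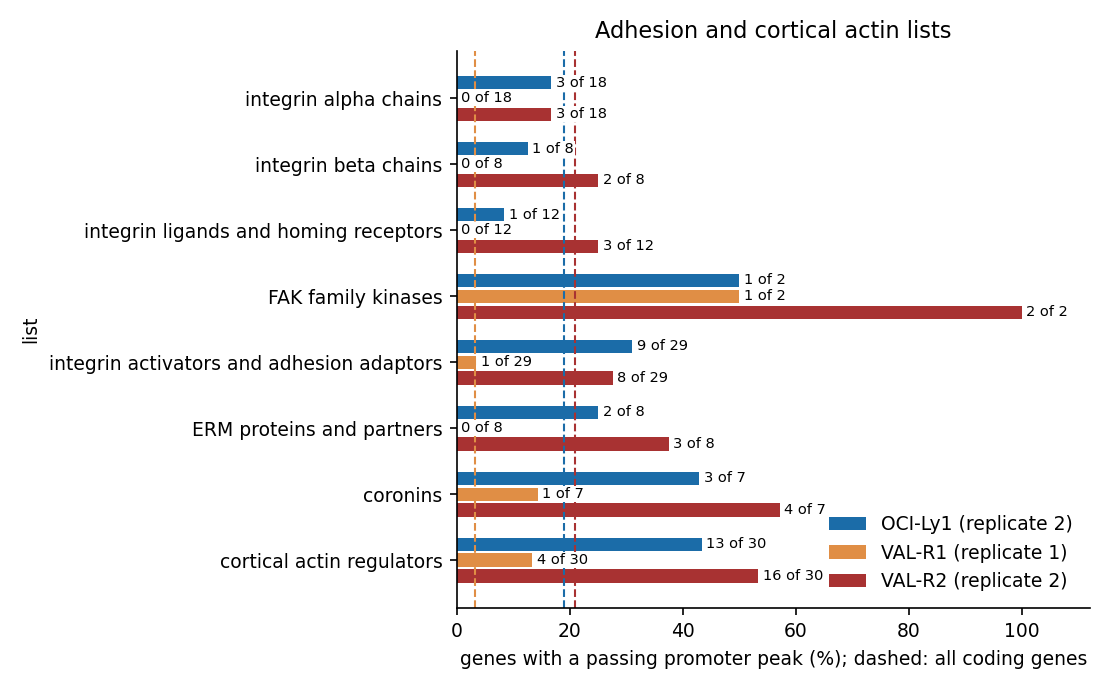
The share of genes with a passing promoter peak (x axis, percent) is drawn as bars for each of the 8 groups of the wider list (y axis, the 10 genes included) and each library, with the counts beside the bars and dashed lines at the shares of all coding genes. The bars of the cortical actin regulators reach 43.3% and 53.3% in OCI-Ly1 and VAL-R2, to the right of the lines at 19.0% and 20.9%, while those of the alpha chains end at 16.7%, to the left of them.

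Set in order by the best -log10 q, the members read PTK2B, ITGB1, ITGA4, CORO1A and EZR in OCI-Ly1 and PTK2B, ITGA4, CORO1A, ITGB1 and EZR in VAL-R2 among those that passed in both. In OCI-Ly1 the read intervals of neighbours overlap all along this order, from 14 reads at PTK2B to 7 at EZR. Of these 5 genes, ITGB1 moved most in place between the libraries, since 95.6% of coding genes were below it in OCI-Ly1 and 83.2% in VAL-R2. ITGA4 (94.5% and 92.6%), CORO1A (92.5% and 89.7%) and EZR (85.1% and 82.1%) kept similar places. The share of the 10 genes at or above a given value was larger than that of all coding genes up to the value of PTK2B, where a single gene is left.

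**Figure D5:**
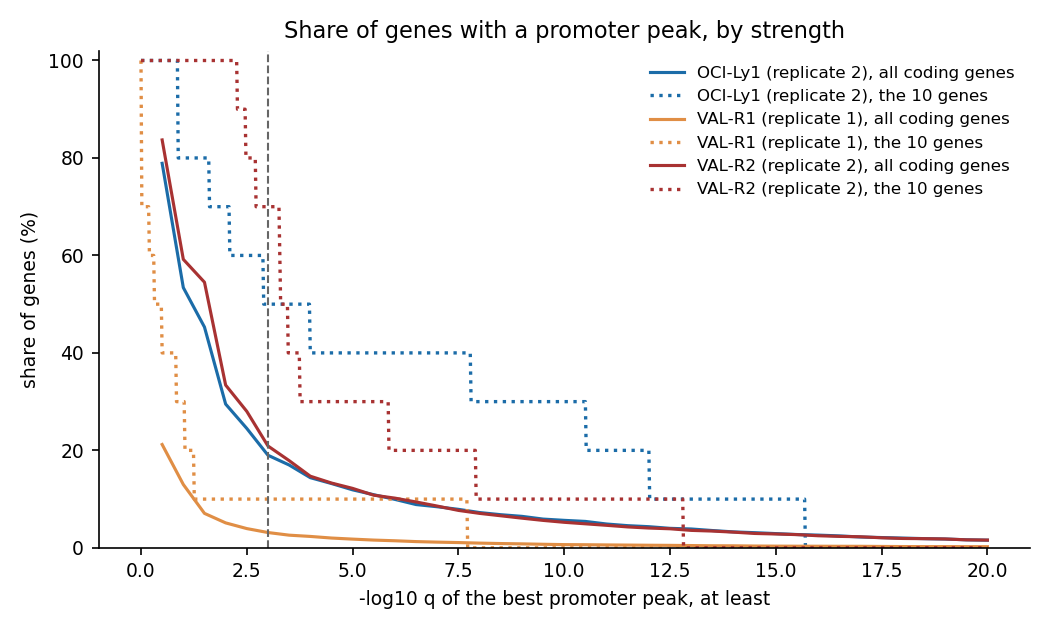
For each -log10 q on the x axis, the curves give the share of genes (y axis, percent) whose best promoter peak was at least that high, as solid lines for all 20136 coding genes and dotted lines for the 10 genes, coloured by library, with a dashed line at the threshold of 3. At the threshold the dotted lines of OCI-Ly1 and VAL-R2 stand at 5 and 7 of the 10 genes, above the solid lines at 19.0% and 20.9%, and each dotted step is 1 gene.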

How the data were processed

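FLI1 ChIP-Seq peak lists of OCI-Ly1 and VAL were used as deposited, 1 list per library. The authors mapped reads to GRCh37 with bowtie2 and kept unique, non-duplicate reads of a mapping quality of at least 10 with SAMtools, and their methods give HOMER, with the FDR controlled at 0.001, as peak caller. The submitters' processing notes list hg19, BWA and CASAVA 1.4 instead, and the lists have the MACS2 form, so the exact origin of the values is not given in the sources used here. The deposited fold is a ratio, of reads piled up at the summit over the background nearby, and the deposited -log10 p-value and -log10 q-value are those of the authors' caller. They rank peaks within a library and are not amounts to compare between libraries.

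TSS were taken from GENCODE release 44 on GRCh37. Reads and background at a summit were solved from fold = (reads + 1) / (background + 1) and the Poisson p-value, within 0.002 of the written -log10 p, and this held for 5350 of 5354, 972 of 973 and 6473 of 6474 passing peaks of OCI-Ly1, VAL-R1 and VAL-R2. The depth per library is known only through these reads. Replicate 1 of OCI-Ly1 was left out, OCI-Ly1 denotes replicate 2, and VAL-R1 and VAL-R2 denote replicates 1 and 2 of VAL.

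Of the wider list, genes passing in all 3 libraries and at most 3 others per group with the highest lower value of OCI-Ly1 and VAL-R2 are named. The members and lists were chosen with earlier results of these data known. The alternatives varied the threshold (-log10 q of 2 and 5), the promoter width (1 kb), the TSS set, the point of the peak, a fold of at least 4, the libraries, and the motif and its window (100 bp). Scripts were tested on simulated data and used scipy 1.17.1, numpy 2.4.6 and pandas 2.3.3 under python 3.11.15, with pysam 0.24.0, samtools 1.23.1 and matplotlib 3.10.9.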

Additional observations from a re-analysis of the deposited data

How the results depend on the processing

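No paired analysis was possible because no test compares groups and only 1 library of OCI-Ly1 has usable peaks. A width of 1 kb, coding starts only, the summit in place of the centre and a fold of at least 4 changed no member's promoter call. Placed by the summit, 4 peaks lay inside the members in OCI-Ly1 and 4 in VAL-R2, since the summits at ITGA4 and PTK2B are upstream of the gene. The count of members passing in both lines ranged from 1 to 5 when a VAL library was left out, and that of the 114 listed genes from 6 to 28, the lower values without VAL-R2. At a -log10 q of at least 2, which 29.5%, 5.12% and 33.4% of all coding genes reached in OCI-Ly1, VAL-R1 and VAL-R2, 7, 1 and 10 members passed, with 7 in both lines including ITGB2 and, with summits 333062 bp apart, PTK2. At this value 53, 14 and 68 listed genes passed in OCI-Ly1, VAL-R1 and VAL-R2 and 44 in both lines, and 11 peaks lay inside the members in OCI-Ly1 and 11 in VAL-R2. At a value of at least 5 (11.9%, 1.79% and 12.2% of all coding genes), 3 members (ITGA4, PTK2B and CORO1A) and 23 listed genes passed in VAL-R2, 3 members and 18 listed genes in both lines, and 3 peaks lay inside the members in each of OCI-Ly1 and VAL-R2. With only canonical starts, chosen after seeing the data, 0 members passed in VAL-R1. With GGAA as the motif the members' counts were 5 and 6 in OCI-Ly1 and VAL-R2, and with CCGGAA followed by GT they were 1 and 1. The causes of these shifts, beyond the looser or stricter rule itself, were not tested. The weakest passing peaks rest on 6 reads, so calls at EZR, PTK2 and MSN turn on very few reads, and OCI-Ly1 has no replicate.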
